A study of Homo sapiens with 9 samples.

Results

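The genes described here are the core and regulatory splicing genes whose symbols begin with SNRPA to SNRPG, SNRNP, SRSF and a digit, HNRNP, SF3A or SF3B and a digit, or PRPF and a digit. The symbol rule took 78 of the 19257 genes in the table: 24 HNRNP, 14 PRPF, 12 SNRP, 12 SRSF, 7 SNRNP, 6 SF3B and 3 SF3A genes. No measured value entered the rule, but the members were chosen with earlier results of these data known. Of the 78 genes, 74 had enough counts to be tested. The other 4 were HNRNPCL1 and HNRNPH2, with 1 count each over all libraries, and the long noncoding transcripts PRPF19-DT and SNRPF-DT, with 0 to 8 counts and no count. HNRNPD-DT is another such divergent transcript that matches the rule by its name alone, and it was tested. HNRNPH2 overlaps the span of the coding gene RPL36A-HNRNPH2, and no source used here says how reads in such overlaps were counted.

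The spliceosome removes introns from pre-mRNA and is built from small nuclear ribonucleoproteins (snRNPs). The U1 particle recognises the splice donor, U2 the branch point, and the U4/U6.U5 tri-snRNP joins before the catalytic steps. The Sm ring is a set of proteins shared by the U1, U2, U4 and U5 particles. SR proteins and hnRNPs bind exons and introns and steer which sites are used, and many of them carry O-linked N-acetylglucosamine, the sugar that OGT attaches to nuclear and cytoplasmic proteins.

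The data were 9 RNA-seq libraries, 3 for each of 3 groups, from a culture labelled A549, a lung adenocarcinoma line. NC cells received the empty Lenti-CRISPR-V2 plasmid and carry the genotype label WT. The OGT_KO group was given a version of that plasmid aimed at OGT, and the TR11B_KO group a version aimed at TR11B, taken here to be TNFRSF11B, the gene of osteoprotegerin. Every group was grown in DMEM with fetal bovine serum, and all 3 carry the vector. Titles name biological replicates, but no label says whether they were separate cultures, pools or clones, so the p-values measure only the spread between these libraries, which may be technical. An effect of the guide or of a clone and one of the knockout cannot be told apart.

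Differences were tested with edgeR's quasi-likelihood test, adjusted by Benjamini-Hochberg over the 12574 genes with enough counts. A gene passed, or was called, at an adjusted p under 0.05. The calls of the members, and of the outside genes named below other than LSM5 and LSM8, were also tried under 18 alternatives: other tools, scalings and filters, a correction for gene length, and the loss of each single library.

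Library totals ran from 38327508 to 42245970 counts. TR11B_KO replicate 2 stood apart, with a scaling factor of 0.784 by TMM, edgeR's adjustment of library size, against 0.951 to 1.159 in the others and 14128 genes with a count against 14581 to 14954. The targeted OGT transcript was at 29.6, 26.9 and 24.7 CPM (counts scaled to library size by TMM) in NC, 21.1, 28.3 and 22.9 in OGT_KO, against 17.0, 11.5 and 12.4 in TR11B_KO. Its log2 fold change against NC was -0.17 ± 0.21 (SE, n = 3 per group, adjusted p = 0.607) in OGT_KO and -0.99 ± 0.21 (adjusted p = 0.00393) in TR11B_KO, so the transcript passed the test in the group it does not name. Counts of TNFRSF11B were too few for a test: 13, 15 and 3 across the NC libraries, 3, 1 and 0 for TR11B_KO, and 1, 0 and 0 for OGT_KO. Gene counts do not show whether the guide's site was edited.

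The label of the line was checked against 8 markers of A549. KRT7, KRT8 and KRT18 were abundant, but the other 5 (EPCAM, ALDH1A1, ALDH3A1, AKR1B10 and AKR1C1) had between 0 and 7 counts in each library. CDKN2A, which A549 is known to have lost, had 4173 to 9775 counts per library, and its neighbour MTAP had 88 to 272. These 2 genes were added after their values were seen. The measurements go against the label in all 9 libraries, and the cells are called by their group names below. The A549 list summed to 20000 to 22600 CPM in NC, 11500 to 14600 in OGT_KO and 16400 to 25800 in TR11B_KO, so OGT_KO lay below both other groups. The part of this shift in the results below was not tested. Summed levels of the other marker lists were low in every library: 0.203 to 0.871 CPM for fibroblasts (5 of 7 markers in the table) and 0 to 0.485 CPM for endothelium (3 of 5, PECAM1 at 0). The leukocyte list (3 of 6 in the table) summed to 3.63 to 6.33 CPM in NC, 3.42 to 3.98 in OGT_KO and 2.87 to 4.32 in TR11B_KO. In bulk RNA, fewer cells of a type and less RNA per cell cannot be told apart.

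Promoters of 5 members are shown because the results turn on these genes. PRPF8, SNRNP200, SF3B2 and SRSF4 were lower in TR11B_KO under every alternative tried, and PRPF31 was higher there under 17 of 18. HNRNPUL1, also lower there under every alternative, has several annotated start sites and is not shown. Each is the run of 100 bases that ends just before the start site annotated by RefSeq on GRCh38.p14, written 5′ to 3′ on the gene's strand. The windows lie at chr17:1684868-1684967 (minus strand, PRPF8), chr2:96305547-96305646 (minus, SNRNP200), chr11:66052264-66052363 (plus, SF3B2), chr1:29181901-29182000 (minus, SRSF4) and chr19:54115654-54115753 (plus, PRPF31). Capitals mark the NF-Y box CCAAT, the SP box GGGCGG or the ETS box CCGGAAG on either strand.
PRPF8: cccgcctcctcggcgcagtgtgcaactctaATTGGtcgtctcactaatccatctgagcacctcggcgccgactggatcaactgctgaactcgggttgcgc
SNRNP200: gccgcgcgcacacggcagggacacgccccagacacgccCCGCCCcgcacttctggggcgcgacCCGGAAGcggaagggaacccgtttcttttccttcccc
SF3B2: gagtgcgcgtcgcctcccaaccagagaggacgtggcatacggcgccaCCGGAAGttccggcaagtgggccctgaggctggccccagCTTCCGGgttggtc
SRSF4: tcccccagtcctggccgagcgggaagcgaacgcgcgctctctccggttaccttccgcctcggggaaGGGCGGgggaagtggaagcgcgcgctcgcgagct
PRPF31: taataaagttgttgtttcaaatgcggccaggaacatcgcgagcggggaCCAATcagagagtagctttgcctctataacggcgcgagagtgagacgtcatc
The 4 promoters shown for lower genes do not share 1 box: PRPF8 holds only the NF-Y box, SRSF4 only the SP box, SF3B2 the ETS box on both strands, and SNRNP200 an SP and an ETS box.

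RefSeq gave 89 such windows for 69 of the member genes, since a gene can have several start sites. The ETS box CCGGAAG, read on both strands, was in 18 of them (20.2%), against 9.89% of the 14717 windows of tested genes and 5.61% of all 35116 windows. CCAAT was in 27 (30.3%), against 20.2% and 18.1%. The SP box GGGCGG was in 31 (34.8%), against 49.9% and 31.3%, so among windows of tested genes it was the commonest of the boxes searched and among the members it was less common. The E-box CACGTG was in 7 (7.87%), against 4.59% and 3.43%. The NRF1 box, the YY1 box AAGATGGCG and the CRE box TGACGTCA were in none of the 89 and in 1.14%, 0.414% and 1.75% of the windows of tested genes. A gene with several start sites counts more than once, and a match of letters is a description of the sequence only.

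Levels per length, in the FPKM of the authors' table (fragments scaled to gene length and library size), spanned over 4 orders of magnitude among the members, as the plot of FPKM by gene shows. In NC, 16 of the 74 tested genes had a mean of at least 100 FPKM and 11 a mean under 1 FPKM. SNRPB, which encodes the B and B' proteins of the Sm ring, was the highest at 1603 ± 120 FPKM (SD, n = 3). It was followed within the other families by SF3B5 (493 ± 24.6 FPKM), SNRNP70 (446 ± 4.04), HNRNPL (315 ± 11.4) and SF3A2 (265 ± 5.57). The highest PRPF gene over all libraries was PRPF6 (172 ± 8.73 FPKM in NC), and the highest SR gene was SRSF9 (93.3 ± 5.66 FPKM).

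**Figure D1:**
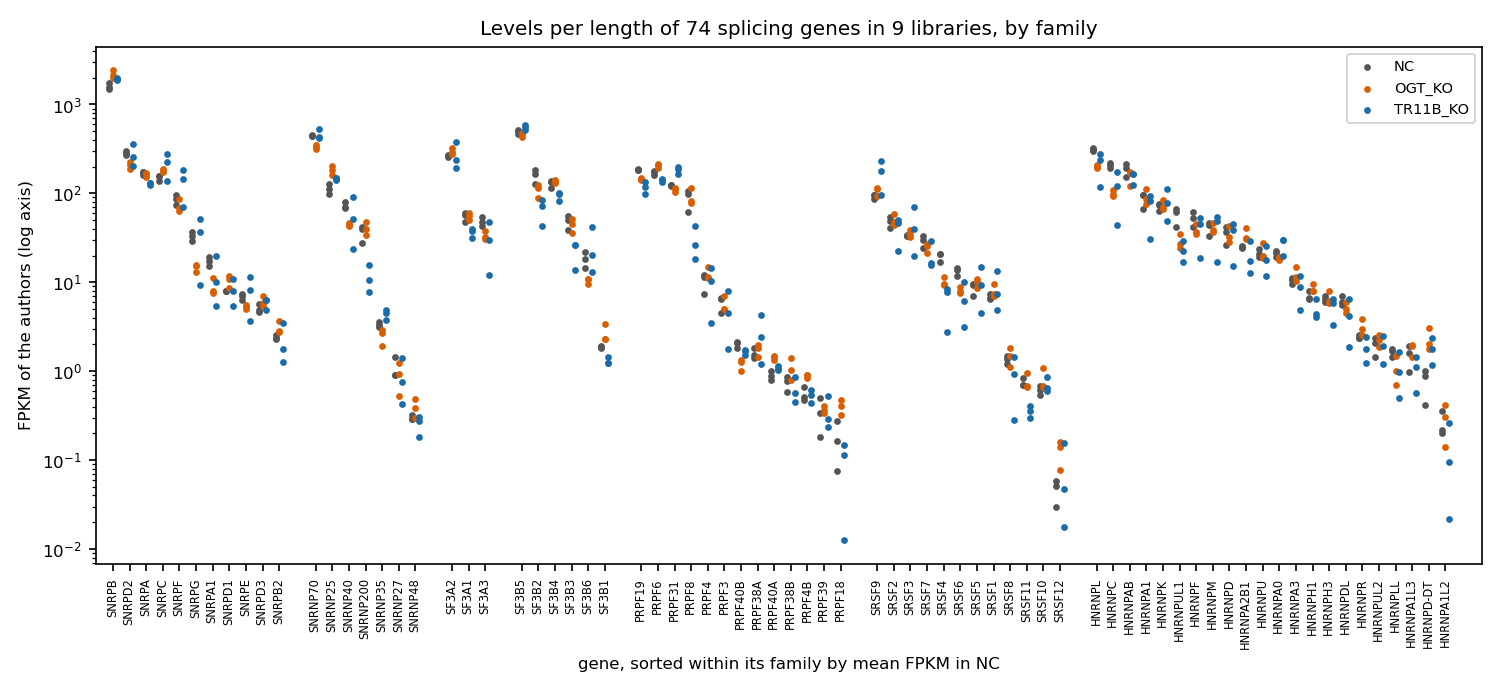
FPKM of the authors (log axis) for the 74 tested splicing genes in each of 9 libraries, sorted within a family by the NC mean and coloured by group. The highest point of every group belongs to SNRPB, and 11 genes have an NC mean under 1 FPKM.

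Proteins that sit in equal number in 1 particle did not have equal transcript levels. Within the Sm ring, SNRPB and SNRPD3 (5.04 ± 0.587 FPKM in NC) differed by 318-fold in NC. SNRPD2 was at 284 ± 14.7 FPKM, SNRPF at 85.3 ± 10.3, SNRPG at 33.1 ± 3.64, SNRPD1 at 7.99 ± 0.0582 and SNRPE at 6.90 ± 0.523. In the SF3B complex of U2, SF3B5 stood at 493 FPKM and SF3B1, the branch site scaffold, at 1.88 ± 0.0604 FPKM. FPKM divides by the authors' gene length, and a gene counted over a long span of exons reads low. SNRPE and SNRPG have near copies elsewhere in the genome, and no label or note says how reads shared with such copies were counted.

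In the fit over all 9 libraries, the share of members called was below that of all tested genes in each of the 3 comparisons. In OGT_KO against NC the gap was small. In OGT_KO against NC, 13 of 74 members passed (17.6%, 2 higher and 11 lower), beside 18.3% of all 12574 tested genes. In TR11B_KO against NC, 17 passed (23.0%, 8 higher and 9 lower), beside 27.6%. In OGT_KO against TR11B_KO, 19 passed (25.7%, 6 higher and 13 lower), beside 33.2%. With no filter on low counts the order was the reverse: 23.4%, 24.7% and 28.6% of 77 members were called, beside 15.5%, 21.7% and 25.5% of 17923 genes. It was also the reverse in TR11B_KO against NC with the correction for gene length (25.7%, beside 22.2% of all genes). With that correction and a block for the replicate number, it was so in OGT_KO against NC (13.5%, beside 12.9%). By direction, 8.26% of all genes were called higher and 10.1% lower in OGT_KO against NC, 13.2% and 14.3% in TR11B_KO against NC, and 16.7% and 16.5% in the direct comparison. The median log2 fold change of the members was -0.07, -0.13 and 0.03 in the 3 comparisons, and that of all tested genes 0.03, -0.01 and 0.06. The 2 knockouts share their 3 NC libraries, so their fold changes are not independent of each other. The 3 libraries of a group lay wholly above or below those of NC for 37 members in OGT_KO (13 above, 24 below, beside 49.8% of all genes, 25.6% below) and for 26 in TR11B_KO (12 above, 14 below, beside 40.9%). In the direct comparison they did for 25 members (13 above, 12 below), beside 44.9% of all genes, 20.3% below.

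**Figure D2:**
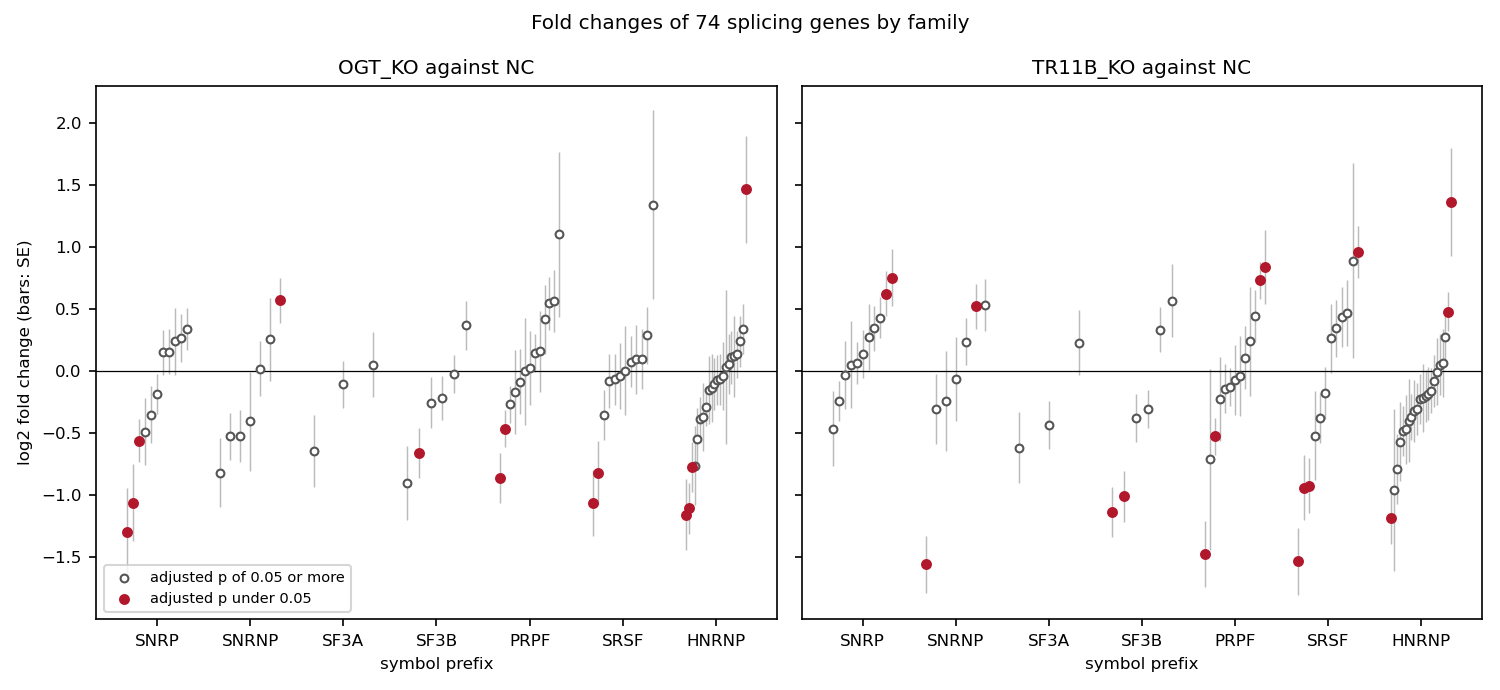
Log2 fold change against NC of the 74 tested splicing genes, by symbol family, in OGT_KO (left) and TR11B_KO (right). Bars are standard errors and filled points passed the test: 13 in OGT_KO, of which 11 lie below 0, and 17 in TR11B_KO, of which 9 lie below 0.

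In the fit over all 9 libraries the 3 groups share 1 estimate of the spread, so the spread between TR11B_KO libraries also entered OGT_KO against NC. A fit of OGT_KO and NC alone called 32 members (43.2%), beside 41.8% of all genes. Without TR11B_KO replicate 2, 25 members passed in OGT_KO against NC (33.8%), and so did 35.4% of all genes. Without it, 29 passed in TR11B_KO against NC (39.2%, beside 34.2% of all genes) and 37 in the direct comparison (50.0%, beside 41.4%). Leaving out TR11B_KO replicate 1 gave 19, 30 and 22 members (25.7%, 40.5% and 29.7%), beside 26.1%, 34.8% and 38.3% of all genes. In OGT_KO against NC, leaving out an NC or OGT_KO library gave 1 to 7 members (1.35% to 9.46%), beside 8.34% to 11.2% of all genes, and leaving out TR11B_KO replicate 3 gave 8 (10.8%), beside 16.4%. In TR11B_KO against NC, 9, 10 and 11 passed without NC replicates 1, 2 and 3 (12.2%, 13.5% and 14.9%, beside 14.5%, 14.1% and 21.1% of all genes), and 9 without TR11B_KO replicate 3 (12.2%, beside 21.2%). In the direct comparison 9 passed without OGT_KO replicate 2 (12.2%, beside 18.7%).

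In the Sm ring, the shared ring around the RNAs of U1, U2, U4 and U5, 2 of 7 genes fell in OGT_KO and none rose. That is 28.6%, beside 18.3% of all genes called. SNRPG was at 51.7, 57.6 and 46.0 CPM in NC, 22.9, 20.6 and 19.7 in OGT_KO, against 81.0, 19.0 and 61.1 in TR11B_KO. The 3 OGT_KO libraries lay below all NC libraries, and TR11B_KO replicate 2 lay with them rather than with its own group. SNRPG fell by 1.30 ± 0.36 on the log2 scale in OGT_KO (adjusted p = 0.0225); leaving out NC replicate 1 or 2 or any 1 OGT_KO library ended the call (adjusted p = 0.0631 to 0.0902). In the direct comparison its log2 fold change was -1.35 ± 0.36 (adjusted p = 0.0107), lost without OGT_KO replicate 2 (-1.33, adjusted p = 0.0548).

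SNRPD2, which pairs with SNRPD1 in the ring, was at 252, 270 and 279 CPM in NC, 203, 172 and 168 in OGT_KO, against 340, 244 and 255 in TR11B_KO. OGT_KO lay below both other groups. Its log2 fold change was -0.56 ± 0.17 against NC (adjusted p = 0.0378) and -0.63 ± 0.17 against TR11B_KO (adjusted p = 0.0136). The first call was lost without TR11B_KO replicate 3 or any single NC or OGT_KO library (adjusted p = 0.0511 to 0.142), and the second without OGT_KO replicate 2 or 3 (adjusted p = 0.0627 and 0.0644). The second was also lost with library totals alone as the scaling and with a correction for gene length (adjusted p up to 0.399 over the alternatives). In TR11B_KO all 7 ring genes had a fold change above 0 (median log2 0.28), but only SNRPF passed (14.3%, beside 27.6% of all genes called). SNRPF was at 42.7, 38.4 and 33.5 CPM in NC, 29.2, 33.8 and 26.9 in OGT_KO, against 83.7, 40.9 and 69.0 in TR11B_KO, where replicate 2 overlapped NC.

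SNRPF rose by 0.76 ± 0.23 on the log2 scale in TR11B_KO (adjusted p = 0.0270). The call was lost without any 1 NC library or TR11B_KO replicate 3 (adjusted p = 0.0588 to 0.101), and with a per-library correction for gene length its log2 fold change was -0.01 (adjusted p = 0.988). Directly, SNRPF was lower in OGT_KO than in TR11B_KO by a log2 fold change of -1.11 ± 0.23 (adjusted p = 0.00290), or -0.56 with the length correction (adjusted p = 0.0954). SNRPE was also called lower in that comparison (-0.76 ± 0.27, adjusted p = 0.0430), and leaving out any 1 library but TR11B_KO replicate 2 ended that call (adjusted p = 0.0599 to 0.124). The length correction ended it too. The abundant SNRPB was at 1682, 1616 and 1858 CPM in NC, 2187, 1875 and 2476 in OGT_KO, against 2084, 2628 and 2252 in TR11B_KO. Both knockout groups lay above NC, by 0.34 and 0.43 on the log2 scale, and neither difference passed (adjusted p = 0.168 and 0.0664).

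None of the 3 U1 proteins passed in OGT_KO against NC, beside 18.3% of all genes called. In TR11B_KO 1 did (33.3%, beside 27.6%). SNRPC, the C protein of U1 that contacts the donor site, was at 126, 125 and 110 CPM in NC, 132, 131 and 140 in OGT_KO, against 226, 142 and 191 in TR11B_KO. It rose by 0.63 ± 0.18 on the log2 scale in TR11B_KO (adjusted p = 0.0204), was not called without any 1 NC library or TR11B_KO replicate 3 (adjusted p = 0.0585 to 0.0801), and had a log2 fold change of 0.06 with the length correction (adjusted p = 0.837). SNRNP70, the U1-70K protein, was steady in NC at 866, 861 and 872 CPM, lower in each OGT_KO library at 650, 535 and 623, and at 826, 1339 and 898 in TR11B_KO. Its log2 fold change against NC was -0.52 in OGT_KO (adjusted p = 0.0705) and 0.24 in TR11B_KO (adjusted p = 0.378). Only the direct difference passed (-0.76 ± 0.19, adjusted p = 0.00801), and it did not without OGT_KO replicate 2 (-0.68, adjusted p = 0.0509).

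Of the 11 U2 proteins, 2 fell in OGT_KO and 2 in TR11B_KO, and none rose against NC. That is 18.2% in each, beside 18.3% and 27.6% of all genes called. SF3B2, a subunit of the SF3B complex that clamps the branch site, was at 536, 593 and 413 CPM in NC, 350, 348 and 279 in OGT_KO, against 273, 178 and 251 in TR11B_KO. The groups did not overlap, and the lowest NC library was replicate 3. SF3B2 fell by 1.14 ± 0.20 on the log2 scale in TR11B_KO (adjusted p = 0.00147), a call kept under all 18 alternatives. It fell by 0.66 ± 0.20 in OGT_KO (adjusted p = 0.0358), and that call was lost without NC replicate 1 or 2, TR11B_KO replicate 3 or any 1 OGT_KO library (adjusted p = 0.0501 to 0.156). The direct difference did not pass (0.48, adjusted p = 0.0814). The gene spans chr11:66052364-66069308 on GRCh38.

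SF3B3, the large SF3B scaffold that holds SF3B1, was at 484, 540 and 369 CPM in NC, 411, 426 and 332 in OGT_KO, against 254, 171 and 267 in TR11B_KO. TR11B_KO lay below both other groups, and SF3B3 fell there by 1.01 ± 0.21 on the log2 scale (adjusted p = 0.00342). It was higher in OGT_KO than in TR11B_KO by 0.76 ± 0.21 on the log2 scale (adjusted p = 0.0127), which was 0.27 with the length correction (adjusted p = 0.328) and was not called without OGT_KO replicate 2 (0.69, adjusted p = 0.0623). SF3B1, the subunit most often mutated in blood cancers, was at only 14.7, 15.8 and 15.2 CPM in NC, 17.5, 23.7 and 17.9 in OGT_KO, against 11.9, 12.7 and 10.6 in TR11B_KO. The order was OGT_KO above NC above TR11B_KO with no overlap, and the direct difference alone passed (0.75 ± 0.20, adjusted p = 0.0105). It was not past the threshold without OGT_KO replicate 2 (0.60, adjusted p = 0.0684) and with the length correction (0.30, adjusted p = 0.233).

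Among the genes with the SF3B prefix, those of shortest length, SF3B6 (651 bases) and SF3B5 (690 bases), went the other way in the direct comparison. SF3B6, the p14 protein that touches the branch adenosine, was at 9.32, 11.7 and 14 CPM in NC, 5.87, 6.19 and 6.71 in OGT_KO, against 27.0, 10.9 and 14 in TR11B_KO. OGT_KO was below every other library. Its direct log2 fold change was -1.47 ± 0.30 (adjusted p = 0.00247), called under all 18 alternatives, while -0.90 ± 0.30 against NC missed the threshold (adjusted p = 0.0510). SF3B5 was at 318, 343 and 351 CPM in NC, 305, 256 and 312 in OGT_KO, against 351, 524 and 404 in TR11B_KO. It passed only in the direct comparison (-0.55 ± 0.18, adjusted p = 0.0288), lost without TR11B_KO replicate 3 or any 1 OGT_KO library (adjusted p = 0.0535 to 0.130) and with the length correction (-0.12, adjusted p = 0.683).

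SNRPA1, the A' protein of U2, was at 18.1, 19.9 and 15.7 CPM in NC, 7.53, 10.2 and 8.05 in OGT_KO, against 20.5, 7.19 and 11.3 in TR11B_KO. It fell by 1.06 ± 0.31 on the log2 scale in OGT_KO (adjusted p = 0.0290), and leaving out any 1 of the 6 libraries compared ended the call (adjusted p = 0.0539 to 0.119). In TR11B_KO its 3 libraries ran from below NC to above it, with a log2 fold change of -0.46 (adjusted p = 0.281). None of the 3 SF3A genes passed in any comparison, beside 18.3%, 27.6% and 33.2% of all genes called.

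Of the 8 tri-snRNP genes, none was called in OGT_KO against NC, beside 18.3% of all genes. In TR11B_KO 1 rose and 2 fell (37.5%, beside 27.6%). In the U4/U6.U5 tri-snRNP, the 2 largest proteins of U5 fell in TR11B_KO. PRPF8, which forms the catalytic cavity and holds both splice sites, was at 715, 769 and 441 CPM in NC, 558, 715 and 545 in OGT_KO, against 192, 169 and 330 in TR11B_KO. All TR11B_KO libraries lay below all others. PRPF8 fell there by 1.48 ± 0.27 on the log2 scale, 2.78-fold (adjusted p = 0.00151), while its log2 fold change in OGT_KO was -0.08 ± 0.26 (adjusted p = 0.861). The direct difference was 1.39 ± 0.27 (adjusted p = 0.00147). PRPF8 spans chr17:1650629-1684867.

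SNRNP200, the Brr2 helicase that unwinds U4 from U6 and is bound by PRPF8, showed the same order. It was at 286, 302 and 198 CPM in NC, 272, 293 and 233 in OGT_KO, against 76.8, 70.7 and 119 in TR11B_KO. SNRNP200 fell by 1.56 ± 0.23 on the log2 scale in TR11B_KO, 2.95-fold (adjusted p = 0.000463), the largest fall of any member in that comparison. It was 0.02 ± 0.22 in OGT_KO (adjusted p = 0.960) and 1.58 ± 0.23 in the direct comparison (adjusted p = 0.000204). Both PRPF8 and SNRNP200 kept their calls in TR11B_KO and in the direct comparison under all 18 alternatives. With the length correction the log2 fold change in TR11B_KO was -1.18 for PRPF8 (adjusted p = 0.00528) and -1.27 for SNRNP200 (adjusted p = 0.00154). In both genes NC replicate 3 was the lowest NC library, with TR11B_KO replicate 3 the highest of its group.

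PRPF31, which binds the U4 RNA and bridges it to U5, moved in the opposite direction with the narrowest spread of these genes. It was at 226, 235 and 236 CPM in NC, 208, 184 and 188 in OGT_KO, against 381, 403 and 377 in TR11B_KO. The 3 groups did not overlap. PRPF31 rose by 0.73 ± 0.15 on the log2 scale in TR11B_KO, 1.66-fold (adjusted p = 0.00319), and was lower in OGT_KO than in TR11B_KO by a log2 fold change of -1.0 ± 0.15 (adjusted p = 0.000276). The difference of OGT_KO from NC was -0.27 ± 0.15 (adjusted p = 0.230). With the length correction the rise in TR11B_KO was 0.57 (adjusted p = 0.0211). With that correction and a block for the replicate number together, the rise was not called (adjusted p = 0.0664).

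**Figure D3:**
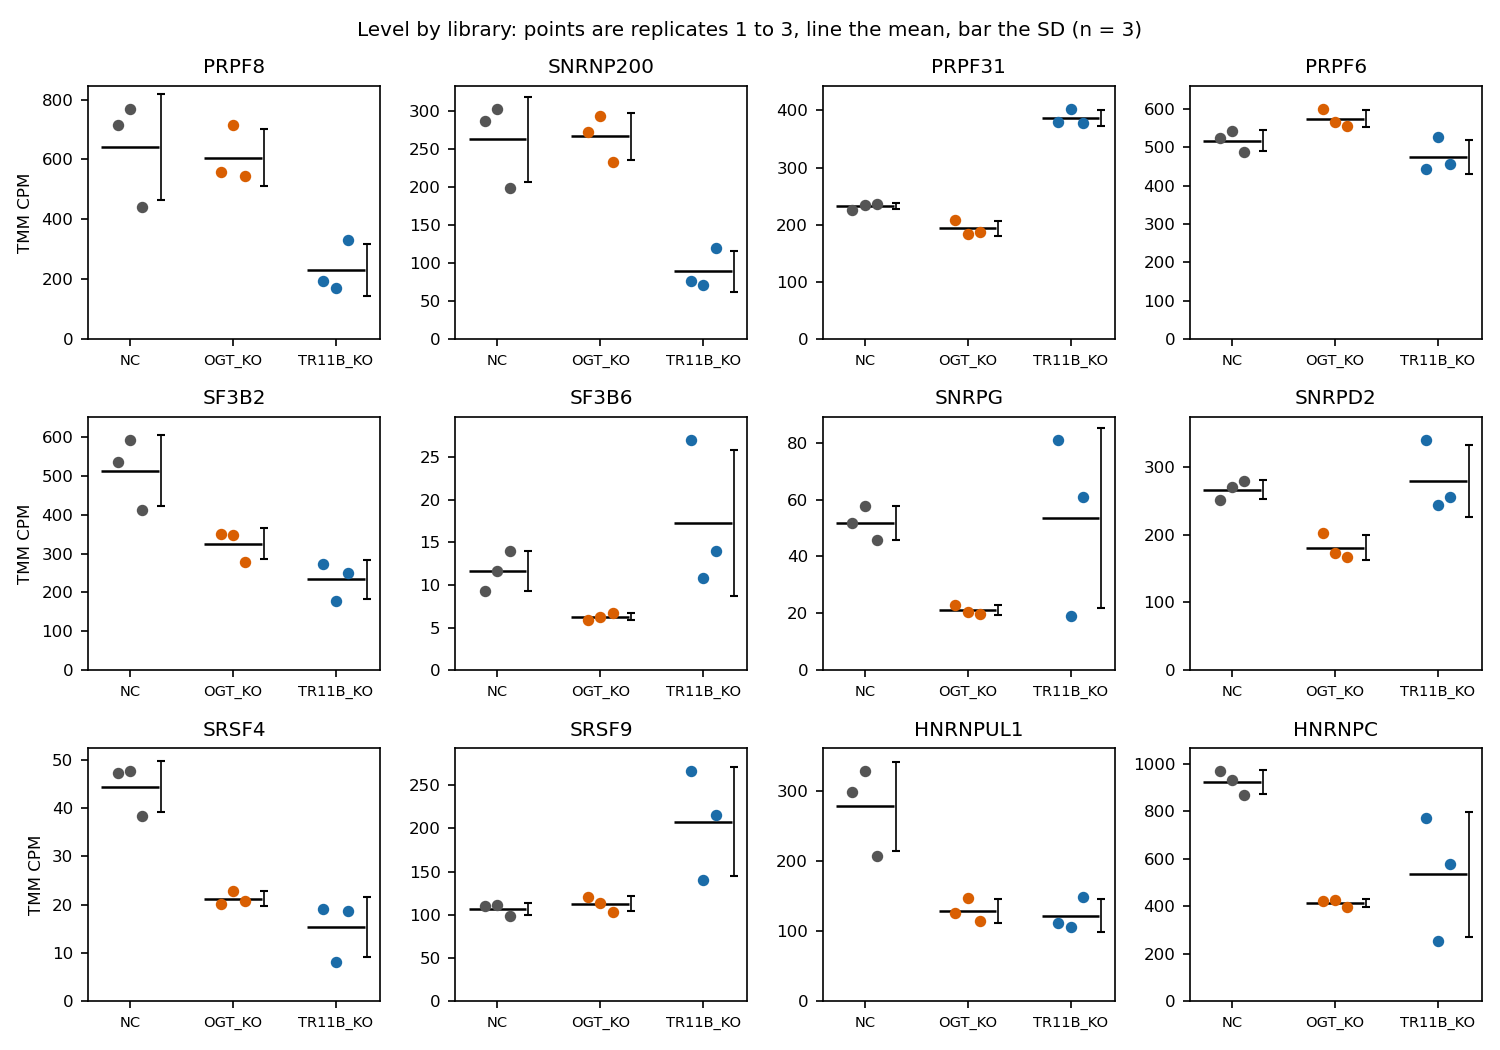
TMM-scaled CPM of 12 splicing genes in each library of NC, OGT_KO and TR11B_KO, with the mean as a line and the SD as a bar (n = 3 per group). PRPF8 and SNRNP200 lie lowest in TR11B_KO, at 169 to 330 and 70.7 to 119 CPM, where PRPF31 lies highest, at 377 to 403 CPM.

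The other tri-snRNP genes did not pass against NC. PRPF6, the U5 protein that ties the tri-snRNP together, was at 524, 542 and 488 CPM in NC, 600, 567 and 557 in OGT_KO, against 445, 526 and 456 in TR11B_KO, with log2 fold changes of 0.15 (adjusted p = 0.530) and -0.12 (adjusted p = 0.579). SNRNP40 was at 109, 114 and 126 CPM in NC and 64.7, 61.1 and 72.0 in OGT_KO with no overlap, and -0.82 ± 0.28 on the log2 scale missed the threshold (adjusted p = 0.0566). PRPF3, PRPF4 and SNRNP27 had log2 fold changes between -0.41 and 0.16 in the 2 comparisons with NC.

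PRPF19, the ubiquitin ligase that heads the complex of its name, was at 424, 436 and 427 CPM in NC, 314, 291 and 329 in OGT_KO, against 311, 290 and 294 in TR11B_KO. Both knockout groups lay below NC and overlapped each other. It fell by 0.46 ± 0.15 on the log2 scale in OGT_KO (adjusted p = 0.0430), a call lost under 14 of 18 alternatives, among them the loss of any 1 library other than TR11B_KO replicate 1 or 2 (adjusted p = 0.0625 to 0.147). It fell by 0.53 ± 0.15 in TR11B_KO (adjusted p = 0.0183), lost without NC replicate 1 or 2 or TR11B_KO replicate 3 (adjusted p = 0.0567 to 0.0755). PRPF40B, a factor that binds U1, was scarce, with little spread, at 13.2, 13.6 and 11.5 CPM in NC, 7.60, 7.41 and 6.07 in OGT_KO, against 10.8, 12.3 and 11.7 in TR11B_KO. It fell by 0.86 ± 0.20 on the log2 scale in OGT_KO (adjusted p = 0.00948) and was lower there than in TR11B_KO (-0.72 ± 0.20, adjusted p = 0.0136). The first call was lost without NC replicate 2 or OGT_KO replicate 3 (adjusted p = 0.0509 and 0.0602), the second without OGT_KO replicate 3 (-0.63, adjusted p = 0.0718). PRPF40B overlaps the genes FMNL3 and FAM186B, and no source used here says whether counting used strand.

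PRPF38A, a factor of spliceosome activation, was called higher in TR11B_KO (0.84 ± 0.30, adjusted p = 0.0498) with values of 22.2, 8.12 and 13.5 CPM that overlapped the 7.22, 9.39 and 7.87 CPM of NC. Leaving out any 1 library but TR11B_KO replicate 2 ended that call (adjusted p = 0.0700 to 0.166), and without TR11B_KO replicate 1 the log2 fold change was 0.47. Its direct call (-0.81, adjusted p = 0.0498) was lost without the same libraries (adjusted p = 0.0660 to 0.178). PRPF18, a catalytic step factor, had 1 of the 2 largest fold changes in OGT_KO that were not called, 1.10 on the log2 scale (adjusted p = 0.265), at a level of 0.171 ± 0.0988 FPKM in NC.

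The minor spliceosome acts on a small class of introns, and 3 members belong to its U11/U12 particle. SNRNP25 was at 122, 108 and 137 CPM in NC, 186, 151 and 208 in OGT_KO, against 162, 205 and 160 in TR11B_KO, so both knockout groups lay above NC. It rose by 0.57 ± 0.18 on the log2 scale in OGT_KO (adjusted p = 0.0408) and by 0.53 ± 0.18 in TR11B_KO (adjusted p = 0.0436). Neither call was kept throughout. Leaving out single libraries ended the first in 6 cases (NC replicates 1 to 3, OGT_KO replicates 1 and 3, TR11B_KO replicate 3; adjusted p up to 0.174). It ended the second in 7 (all but TR11B_KO replicates 1 and 2; adjusted p up to 0.186). The length correction gave 0.46 (adjusted p = 0.0945) and 0.09 (adjusted p = 0.770). SNRNP35 was at 9.89, 11.4 and 10.6 CPM in NC, 8.85, 7.45 and 5.93 in OGT_KO, against 15.7, 15.4 and 15.1 in TR11B_KO. Its 3 groups did not overlap, and the direct difference was -1.06 ± 0.21 (adjusted p = 0.00192), called under all 18 alternatives, while neither knockout passed against NC (adjusted p = 0.0964 and 0.0672). SNRNP35 overlaps RILPL1.

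Of the 12 SR genes, 2 fell in OGT_KO (16.7%, beside 18.3% of all genes called). In TR11B_KO 3 fell and 1 rose (33.3%, beside 27.6%). SRSF4 (SRp75) was at 47.2, 47.7 and 38.4 CPM in NC, 20.1, 22.9 and 20.7 in OGT_KO, against 19.2, 8.12 and 18.6 in TR11B_KO. NC lay above both knockouts, with TR11B_KO replicate 2 lowest of all. SRSF4 fell by 1.53 ± 0.27 on the log2 scale in TR11B_KO (adjusted p = 0.00137), a call kept under all 18 alternatives (without TR11B_KO replicate 2, -1.2). In OGT_KO it fell by 1.06 ± 0.27 (adjusted p = 0.0140), lost without NC replicate 1 or 2 or any 1 OGT_KO library (adjusted p = 0.0514 to 0.0678). SRSF4 spans chr1:29147743-29181900 and overlaps MECR.

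SRSF6 (SRp55) also lay lower in both knockouts than in NC. It was at 58.6, 51.4 and 62.8 CPM in NC, 32.7, 33.5 and 31.7 in OGT_KO, against 44.2, 17.6 and 28.3 in TR11B_KO. It fell by 0.82 ± 0.26 on the log2 scale in OGT_KO (adjusted p = 0.0403) and by 0.94 ± 0.26 in TR11B_KO (adjusted p = 0.0162). The first call was lost without TR11B_KO replicate 3 or any single NC or OGT_KO library (adjusted p = 0.0550 to 0.123), the second without NC replicate 1 or 3 or TR11B_KO replicate 3 (adjusted p = 0.0539 to 0.0553).

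SRSF9 was the SR gene that rose. It was at 110, 111 and 98.9 CPM in NC, 120, 114 and 103 in OGT_KO, against 266, 141 and 216 in TR11B_KO, with TR11B_KO above all other libraries. It rose there by 0.96 ± 0.21 on the log2 scale (adjusted p = 0.00433), or 0.53 with the length correction (adjusted p = 0.0802), and was lower in OGT_KO than in TR11B_KO (-0.89 ± 0.21, adjusted p = 0.00545). That direct call was lost with library totals alone as the scaling and with the length correction (adjusted p up to 0.109 over the alternatives). SRSF9 overlaps GATC. SRSF11, a low-expressed SR protein with a long gene length in the table, was at 6.00, 6.03 and 7.31 CPM in NC, 5.64, 7.14 and 5.55 in OGT_KO, against 3.10, 3.32 and 3.77 in TR11B_KO. It fell by 0.92 ± 0.22 on the log2 scale in TR11B_KO (adjusted p = 0.00787). Its direct difference was 0.85 ± 0.22 (adjusted p = 0.00998), lost without OGT_KO replicate 2 (0.72, adjusted p = 0.0556) and with the length correction (0.38, adjusted p = 0.190).

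The classical SR genes SRSF1, SRSF2, SRSF3 and SRSF7 did not pass in any comparison. SRSF3, which autoregulates through a poison exon, was nearly equal in the NC and OGT_KO libraries (131 to 144 CPM) and ran from 107 to 297 CPM within TR11B_KO. SRSF12 had the second large fold change that was not called in OGT_KO, 1.34 on the log2 scale (adjusted p = 0.236), at 0.0459 ± 0.0147 FPKM in NC.

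Among the 22 tested genes with the HNRNP prefix, 3 fell and 1 rose in OGT_KO (18.2%, beside 18.3% of all genes called). In TR11B_KO 1 fell and 2 rose (13.6%, beside 27.6%). The gene that rose in OGT_KO was the noncoding HNRNPD-DT, which is not an hnRNP gene. The rises in TR11B_KO were HNRNPD-DT and HNRNPA0. HNRNPUL1, an hnRNP U-like protein that binds RNA and acts at DNA breaks, was at 298, 328 and 206 CPM in NC, 125, 147 and 114 in OGT_KO, against 111, 106 and 149 in TR11B_KO. Both knockouts lay below NC and overlapped each other. HNRNPUL1 fell by 1.11 ± 0.21 on the log2 scale in OGT_KO (2.15-fold, adjusted p = 0.00270) and by 1.19 ± 0.21 in TR11B_KO (2.27-fold, adjusted p = 0.00132). It was the only one of the 13 members called in OGT_KO against NC whose call was kept under all 18 alternatives, and its call in TR11B_KO was kept as well. The gene spans chr19:41262557-41307787.

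HNRNPC, which coats nascent transcripts at uridine tracts, was at 971, 933 and 868 CPM in NC, 421, 426 and 395 in OGT_KO, against 773, 253 and 578 in TR11B_KO. OGT_KO varied little and lay below NC, while TR11B_KO replicate 2 lay lowest of the 9 libraries. It fell by 1.16 ± 0.29 on the log2 scale in OGT_KO, 2.23-fold (adjusted p = 0.0132), and leaving out any 1 OGT_KO library ended the call (adjusted p = 0.0547 to 0.0569). Without TR11B_KO replicate 2 the same fall had an adjusted p of 8.66e-09. In TR11B_KO the log2 fold change was -0.79 ± 0.28 (adjusted p = 0.0526), and -0.42 without replicate 2 (adjusted p = 0.0174).

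HNRNPL, which binds CA repeats, was at 821, 781 and 832 CPM in NC, 489, 465 and 471 in OGT_KO, against 713, 388 and 642 in TR11B_KO. The OGT_KO values were close together and below all of NC. HNRNPL fell by 0.77 ± 0.20 on the log2 scale in OGT_KO (adjusted p = 0.0172); the loss of any 1 of the 6 libraries compared ended the call (adjusted p = 0.0520 to 0.0719). HNRNPA0 was at 191, 184 and 165 CPM in NC, 146, 146 and 152 in OGT_KO, against 261, 220 and 273 in TR11B_KO, with no overlap between groups. The direct difference of HNRNPA0 was -0.76 ± 0.16 (adjusted p = 0.00248) and was called under all 18 alternatives. Its rise of 0.48 ± 0.16 in TR11B_KO against NC (adjusted p = 0.0353) was lost without any 1 NC or OGT_KO library or TR11B_KO replicate 3 (adjusted p = 0.0542 to 0.125), and was 0.78 with the length correction (adjusted p = 0.00492).

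HNRNPA2B1 passed in the direct comparison alone, at 88.3, 90.9 and 93.8 CPM in NC, 109, 129 and 108 in OGT_KO, against 106, 60.6 and 67.0 in TR11B_KO. Its log2 fold change of 0.57 ± 0.20 (adjusted p = 0.0444) was lost without any 1 library other than TR11B_KO replicates 1 and 2 (adjusted p = 0.0639 to 0.165). The length correction ended this call too. HNRNPA1, HNRNPK, HNRNPM and HNRNPU, 4 of the best known hnRNPs, did not pass in any comparison, and their log2 fold changes against NC lay between -0.21 and 0.28. HNRNPA1L2 and HNRNPA1L3 are near copies of HNRNPA1, so their counts are uncertain.

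The divergent transcript HNRNPD-DT was called higher in both knockouts at very low levels: 0.597, 0.282 and 0.690 CPM in NC, 1.16, 1.19 and 2.00 in OGT_KO, against 0.809, 1.55 and 1.72 in TR11B_KO. Both knockout groups lay above NC, with log2 fold changes of 1.47 ± 0.43 (adjusted p = 0.0306) and 1.37 ± 0.44 (adjusted p = 0.0313). The first call was lost without NC replicate 1 or 2 or any 1 OGT_KO library (adjusted p up to 0.137), the second without NC replicate 1 or 2 or TR11B_KO replicate 3 (adjusted p up to 0.135). HNRNPD, the coding gene it faces, had log2 fold changes of -0.15 (adjusted p = 0.746) and -0.00 (adjusted p = 0.996).

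As a share of each library's counts, the 78 genes took 1.31%, 1.33% and 1.2% in NC, 1.19%, 1.26% and 1.16% in OGT_KO, against 1.23%, 0.876% and 1.1% in TR11B_KO. TR11B_KO replicate 2 was the lowest. The HNRNP genes took 0.410%, 0.406% and 0.351% in NC, 0.284%, 0.333% and 0.263% in OGT_KO, against 0.379%, 0.161% and 0.314% in TR11B_KO. OGT_KO lay below NC in this share without overlap, and HNRNPC and HNRNPL are among its most abundant genes. The summed share of the SNRP genes went the other way. It was 0.249%, 0.244% and 0.265% in NC and 0.304%, 0.292% and 0.327% in OGT_KO, also without overlap (0.310%, 0.264% and 0.295% in TR11B_KO). On the scale of summed TMM CPM the SNRP genes of NC and OGT_KO overlapped. SNRPB alone held 1719 of the mean sum of 2503 CPM in NC and 2179 of 2825 CPM in OGT_KO. By gene, none of the 11 tested SNRP genes was called higher in OGT_KO and 3 were called lower (27.3%, beside 18.3% of all genes). Their median log2 fold change was -0.18. Summed FPKM over all members averaged 6260 ± 75.2 for NC (SD, n = 3), 6334 ± 35.3 for OGT_KO and 6187 ± 668 for TR11B_KO.

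Gene length varied together with the fold changes in TR11B_KO. Across the 74 members, Spearman's rho of the log2 fold change with length was -0.24 in TR11B_KO, 0.19 in OGT_KO and 0.39 in the direct comparison; across all 12574 tested genes it was -0.31, 0.07 and 0.33. Genes are not independent replicates, the points share libraries, and no p is given. Each library's own deviation from the mean had a rank correlation with length of -0.235 to -0.293 in TR11B_KO, 0.070 to 0.206 in NC and 0.139 to 0.328 in OGT_KO. The part of this trend in the results was not tested beyond the length correction, which is given here for some of the genes only.

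**Figure D4:**
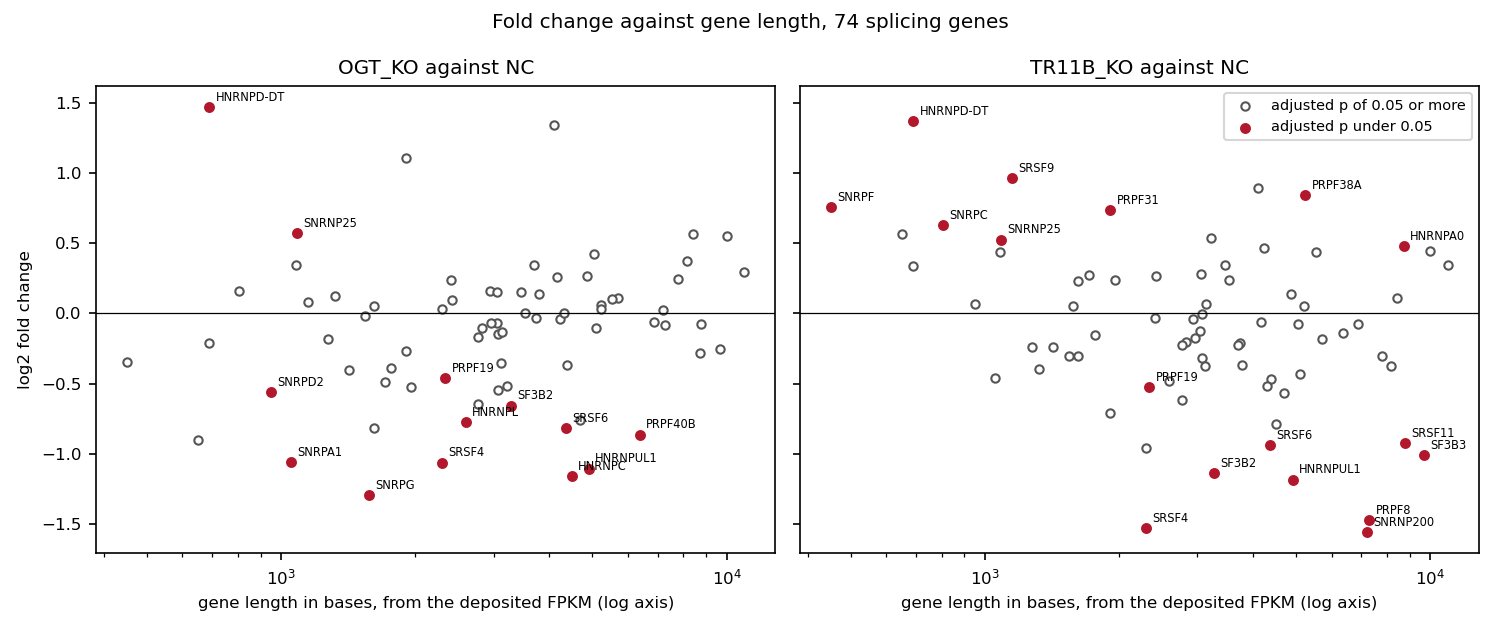
Log2 fold change against NC of the 74 tested splicing genes (vertical axis) by gene length in bases on a log axis, in OGT_KO (left) and TR11B_KO (right), with the genes that passed filled and named. In TR11B_KO, 6 of the 8 genes called higher are among the 25 shortest and 6 of the 9 called lower among the 25 longest.

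In TR11B_KO the 25 shortest members (452 to 2337 bases) had a median log2 fold change of 0.07, with 6 called higher and 2 lower. The 24 of middle length (2411 to 4228 bases) had -0.09, with 0 higher and 1 lower. The 25 longest (4307 to 10955 bases) had -0.30, with 2 higher and 6 lower. The short genes among the rises were SNRPF, SNRPC, SNRNP25, SRSF9, PRPF31 and HNRNPD-DT. With the length correction PRPF31 alone of these 6 stayed past the threshold, and the long PRPF8, SNRNP200, SF3B3 and SRSF11 all stayed past it in TR11B_KO against NC. Other members gained a call: 19 passed in TR11B_KO against NC with the correction (25.7%, beside 22.2% of all genes). Without the correction 17 passed (23.0%, beside 27.6%). In OGT_KO these 3 length classes had medians of -0.27, -0.05 and 0.00, and the 11 calls lower were spread over 5 short, 2 middle and 4 long genes.

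Splicing genes outside the symbol rule were taken from 9 lists with 144 tested genes. The lists were chosen with earlier results of these data known, so their shares describe the genes listed and are not a test. In OGT_KO 8 rose and 20 fell, in TR11B_KO 11 rose and 44 fell, and in the direct comparison 35 were higher and 14 lower in OGT_KO. The share called was 19.4% in OGT_KO, close to the 18.3% of all genes, and 38.2% in TR11B_KO, above the 27.6% of all genes. In the direct comparison it was 34%, close to the 33.2% of all genes. In OGT_KO the count ran from 28 down to 9 without OGT_KO replicate 1 (9.07% of all genes called) and up to 54 without TR11B_KO replicate 2 (35.4%), and in TR11B_KO from 55 down to 30 without NC replicate 1 (14.5%).

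Some partners of the U5 and U4/U6 proteins were called in both knockouts. DDX23, the Prp28 helicase that releases U1 from the donor site, was at 290, 306 and 258 CPM in NC, 163, 164 and 147 in OGT_KO, against 183, 126 and 154 in TR11B_KO. It fell by 0.85 ± 0.17 on the log2 scale in OGT_KO (adjusted p = 0.00446) and by 0.88 ± 0.17 in TR11B_KO (adjusted p = 0.00254). EFTUD2, the GTPase of U5 that sits beside PRPF8, fell by 0.75 ± 0.17 (adjusted p = 0.00719) and 0.80 ± 0.17 (adjusted p = 0.00357), with 466 to 594 CPM in NC and 279 to 352 CPM over both knockouts. TXNL4A, the small U5 protein Dim1, rose instead: it was at 150, 156 and 147 CPM in NC, 251, 251 and 256 in OGT_KO, against 267, 242 and 254 in TR11B_KO, by 0.74 ± 0.15 (adjusted p = 0.00373) and 0.75 ± 0.15 (adjusted p = 0.00251). NC lay outside the knockouts in all 3 genes. Of the 34 tri-snRNP and Prp19 complex genes tested, 3 rose and 4 fell in OGT_KO, and 1 rose and 10 fell in TR11B_KO. These are shares of 20.6% and 32.4%, beside 18.3% and 27.6% of all genes.

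Of the 17 genes on the list of branch site factors and related genes, 1 rose in OGT_KO (5.88%, beside 18.3% of all genes called). In TR11B_KO 1 rose and 7 fell (47.1%, beside 27.6%). DDX46, the Prp5 helicase that remodels U2, was the one that rose in OGT_KO. It was at 5.5, 5.04 and 5.03 CPM in NC, 8.14, 10.3 and 8.62 in OGT_KO, against 2.69, 3.06 and 1.74 in TR11B_KO. The 3 groups did not overlap. DDX46 fell by 1.06 ± 0.25 on the log2 scale in TR11B_KO (adjusted p = 0.00666), and the direct difference was 1.85 ± 0.25 (adjusted p = 0.000118). Its rise of 0.80 ± 0.24 in OGT_KO (adjusted p = 0.0326) was lost without any 1 NC or OGT_KO library (adjusted p = 0.0693 to 0.127). PHF5A, a small SF3B subunit, was the gene of this list that rose in TR11B_KO. It was at 112, 109 and 102 CPM in NC, 87.8, 72.2 and 76.0 in OGT_KO, against 179, 148 and 190 in TR11B_KO, with no overlap between groups. PHF5A rose by 0.68 ± 0.16 in TR11B_KO (adjusted p = 0.00782), or 0.22 with the length correction (adjusted p = 0.371), and the direct difference was -1.13 ± 0.17 (adjusted p = 0.000221). RBM25, which binds U1 and exonic enhancers, fell by 0.98 ± 0.23 in TR11B_KO (adjusted p = 0.00687) and was at 0.15 ± 0.22 in OGT_KO (adjusted p = 0.678).

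The LSM ring, the counterpart of the Sm ring on U6 RNA, had the highest share of calls of the 9 lists in TR11B_KO. There 5 of 7 genes rose and none fell (71.4%, beside 27.6% of all genes called, median log2 fold change 0.73). In OGT_KO 1 of the 7 rose and none fell (14.3%, beside 18.3%, median -0.27). LSM3 was at 10.4, 11.1 and 16 CPM in NC, 15.7, 17.6 and 22.7 in OGT_KO, against 52.3, 25.8 and 20.8 in TR11B_KO, and rose in TR11B_KO by 1.40 ± 0.31 on the log2 scale (adjusted p = 0.00527). LSM4 was at 319, 325 and 346 CPM in NC, 505, 401 and 508 in OGT_KO, against 580, 600 and 560 in TR11B_KO. It rose in OGT_KO too, the one LSM gene called there, by 0.51 ± 0.16 on the log2 scale (adjusted p = 0.0366), a call lost without any 1 NC library, OGT_KO replicate 1 or 3 or TR11B_KO replicate 3 (adjusted p = 0.0544 to 0.151). LSM4 rose by 0.81 ± 0.16 in TR11B_KO (adjusted p = 0.00244), or 0.59 with the length correction (adjusted p = 0.0209). LSM7 rose by 0.73 ± 0.16 in TR11B_KO (adjusted p = 0.00468), or 0.13 with the length correction (adjusted p = 0.627). All TR11B_KO libraries lay above NC in these 3 genes. LSM5 and LSM8 passed too, with log2 fold changes of 0.72 ± 0.25 (adjusted p = 0.0435) and 1.23 ± 0.30 (adjusted p = 0.00847). In the direct comparison 4 of the 7 genes were lower in OGT_KO (57.1%, beside 16.5% of all genes called lower).

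Sm ring assembly, in which the SMN complex and the PRMT5 methylosome load the Sm proteins, had 3 of 13 genes lower in OGT_KO and 5 lower in TR11B_KO, with none higher. These are 23.1% and 38.5%, beside 18.3% and 27.6% of all genes called. PRMT5, which methylates Sm proteins, was at 734, 751 and 752 CPM in NC, 422, 392 and 417 in OGT_KO, against 341, 376 and 379 in TR11B_KO. It fell by 0.86 ± 0.15 on the log2 scale in OGT_KO (adjusted p = 0.00153) and by 1.03 ± 0.15 in TR11B_KO (adjusted p = 0.000459), with 3 closely spaced libraries in each group and no overlap with NC. Its partner WDR77 fell by 0.50 ± 0.15 in OGT_KO (adjusted p = 0.0342) and by 0.48 ± 0.15 in TR11B_KO (adjusted p = 0.0313). The first call was lost without TR11B_KO replicate 3 or any 1 NC or OGT_KO library (adjusted p = 0.0504 to 0.138), the second without TR11B_KO replicate 3, OGT_KO replicate 1 or 3 or any 1 NC library (adjusted p = 0.0502 to 0.119). Of the SMN complex, GEMIN4 fell by 0.53 ± 0.16 in OGT_KO (-0.525, adjusted p = 0.0361; lost without any 1 NC or OGT_KO library, adjusted p = 0.0798 to 0.148) and by 0.78 ± 0.16 in TR11B_KO (adjusted p = 0.00349). GEMIN5, which recognises the snRNA, fell by 1.15 ± 0.29 in TR11B_KO (adjusted p = 0.0109), lost without NC replicate 1 (-1.02, adjusted p = 0.0545), and was at -0.05 ± 0.29 in OGT_KO (adjusted p = 0.934).

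The kinases and relatives of the SR proteins fell in TR11B_KO in 6 of 19 cases and in OGT_KO in 1, with none higher. That was 31.6% and 5.26%, beside 27.6% and 18.3% of all genes called. CLK2, which phosphorylates SR proteins, was at 14.7, 14.8 and 15.4 CPM in NC, 9.33, 10.9 and 9.07 in OGT_KO, against 4.81, 5.09 and 6.20 in TR11B_KO. The 3 groups did not overlap. CLK2 fell by 1.48 ± 0.21 on the log2 scale in TR11B_KO (adjusted p = 0.000355), and its fall of 0.61 ± 0.20 in OGT_KO (-0.615, adjusted p = 0.0465) was lost without TR11B_KO replicate 3 or any 1 NC or OGT_KO library (adjusted p = 0.0524 to 0.161). ACIN1 (Acinus) fell by 1.21 ± 0.24 in TR11B_KO (adjusted p = 0.00287) and was at -0.66 ± 0.24 in OGT_KO (adjusted p = 0.0688). CLK3, a relative of CLK2, fell by 0.90 ± 0.21 in TR11B_KO (adjusted p = 0.00631) and was at -0.47 ± 0.21 in OGT_KO (adjusted p = 0.125).

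Among 31 other regulators tested, 3 rose and 7 fell in OGT_KO (32.3%, beside 18.3% of all genes called). In TR11B_KO 3 rose and 8 fell (35.5%, beside 27.6%). PTBP1, the polypyrimidine tract binding protein also known as hnRNP I, is an hnRNP that the symbol rule does not take. It was at 1137, 1167 and 806 CPM in NC, 693, 730 and 606 in OGT_KO, against 336, 312 and 453 in TR11B_KO, with no overlap between groups. PTBP1 fell by 1.5 ± 0.20 on the log2 scale in TR11B_KO (adjusted p = 0.000278), and its fall of 0.62 ± 0.20 in OGT_KO (adjusted p = 0.0419) was lost without NC replicate 1 or 2 or any 1 OGT_KO library (adjusted p = 0.0894 to 0.167). PCBP1, or hnRNP E1, fell by 0.77 ± 0.17 in OGT_KO (adjusted p = 0.00802) and by 1.17 ± 0.18 in TR11B_KO (adjusted p = 0.000545). CIRBP, the cold-inducible RNA binding protein, rose in both knockouts, by 0.72 ± 0.17 in OGT_KO (adjusted p = 0.0101) and by 0.77 ± 0.17 in TR11B_KO (adjusted p = 0.00479). The call in OGT_KO was lost without NC replicate 1 or OGT_KO replicate 1 (adjusted p = 0.0505 to 0.0617). NONO, a paraspeckle protein, fell by 0.76 ± 0.19 in OGT_KO (adjusted p = 0.0157) and by 1.35 ± 0.20 in TR11B_KO (adjusted p = 0.000463). Its call in OGT_KO was lost without NC replicate 1 or 2 or OGT_KO replicate 1 or 3 (adjusted p = 0.0675 to 0.0735). RBM5, a regulator of apoptosis genes' splicing, fell by 1.35 ± 0.19 in TR11B_KO (adjusted p = 0.000408) and was at -0.52 ± 0.19 in OGT_KO (adjusted p = 0.0708).

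Downstream of splicing, 2 of 9 nonsense-mediated decay genes fell in OGT_KO and 5 in TR11B_KO, with none higher. These are 22.2% and 55.6%, beside 18.3% and 27.6% of all genes called. UPF1, the helicase of that pathway, was at 362, 360 and 307 CPM in NC, 193, 200 and 187 in OGT_KO, against 127, 125 and 157 in TR11B_KO. It fell by 0.82 ± 0.16 on the log2 scale in OGT_KO (-0.825, adjusted p = 0.00355) and by 1.33 ± 0.16 in TR11B_KO (adjusted p = 0.000171), and the 3 groups did not overlap. SMG5, an adaptor of phosphorylated UPF1, was called lower in OGT_KO (-0.72 ± 0.23, adjusted p = 0.0417) and in TR11B_KO (-0.65 ± 0.23, adjusted p = 0.0453). The first call was lost without TR11B_KO replicate 3 or any 1 NC or OGT_KO library (adjusted p = 0.0544 to 0.145), the second without any 1 library other than TR11B_KO replicate 2 (adjusted p = 0.0644 to 0.146). SMG6, the endonuclease of the pathway, fell by 1.27 ± 0.23 in TR11B_KO (adjusted p = 0.00153) and was at -0.02 ± 0.22 in OGT_KO (adjusted p = 0.970). SMG1, the kinase of UPF1, fell by 1.24 ± 0.29 in TR11B_KO (adjusted p = 0.00694) and was at 0.76 ± 0.28 in OGT_KO (adjusted p = 0.0709); it has near copies, so its counts are uncertain. Of 8 exon junction complex and export genes, 2 fell in OGT_KO (25%, beside 18.3% of all genes called). In TR11B_KO 1 rose and 1 fell (25%, beside 27.6%). DDX39A, an export helicase, fell by 0.97 ± 0.16 in OGT_KO (adjusted p = 0.00123), from 391 to 439 CPM in NC to 188 to 227 CPM, and was at -0.41 ± 0.16 in TR11B_KO (adjusted p = 0.0705). ALYREF, an export adaptor, fell by 0.63 ± 0.15 in OGT_KO (adjusted p = 0.0117), lost without NC replicate 1 or OGT_KO replicate 1 or 2 (adjusted p = 0.0519 to 0.0587), and was at 0.28 ± 0.15 in TR11B_KO (adjusted p = 0.193). In the exon junction complex CASC3 fell by 1.18 ± 0.23 in TR11B_KO (adjusted p = 0.00234) and RBM8A rose by 0.53 ± 0.17 (adjusted p = 0.0304), the latter lost without any 1 NC library or OGT_KO replicate 1 (adjusted p = 0.0565 to 0.118). In OGT_KO CASC3 was at -0.56 ± 0.23 (adjusted p = 0.0976) and RBM8A at -0.20 ± 0.17 (adjusted p = 0.432). Of 6 minor spliceosome factors, 1 fell in OGT_KO (16.7%, beside 18.3% of all genes called) and 2 in TR11B_KO (33.3%, beside 27.6%). PDCD7, of the U11/U12 particle, was the one that fell in OGT_KO (1.33 ± 0.26 lower on the log2 scale, -1.326, adjusted p = 0.00386). It fell by 1.44 ± 0.27 in TR11B_KO (adjusted p = 0.00179). ZCRB1, of the same particle, fell by 0.99 ± 0.33 in TR11B_KO (adjusted p = 0.0393) and was at 0.51 ± 0.32 in OGT_KO (adjusted p = 0.284). Its call was lost without any 1 NC library, OGT_KO replicate 3 or TR11B_KO replicate 2 or 3 (adjusted p = 0.0553 to 0.133).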

How the data were processed

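The measurements were raw counts per gene and FPKM, both in the authors' deposited table of 19257 genes for 9 RNA-seq libraries. The build was GRCh38 and the tools named were HISAT, HTSeq, fastp, DESeq2 and R 3.2.0, per the submitters' processing notes. Their roles, the annotation and the strand setting are not given in any source used here. The deposited FPKM values are scaled to gene length and library size by the authors. They were used to compare levels between genes and to derive gene lengths. A small count was added before logs were taken for the length correction, the check of replicate numbers and each library's rank correlation with length.

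Groups came from the sample titles. The deposited counts were tested with edgeR 4.0.16 (R 4.3.3): genes passing its default low-count filter (12574), TMM scaling, 1 mean per group over all 9 libraries, robust quasi-likelihood F tests, and Benjamini-Hochberg adjustment over all tested genes. A call is an adjusted p under 0.05, and every adjusted p quoted comes from this test unless another setting is named. A standard error is the size of the log2 fold change over the root of its F. Levels are CPM scaled by TMM; SDs are over 3 libraries. Gene lengths were the ratio of count to FPKM, whole to within 0.01 base in 17919 of 17923 genes. The length correction is a per-library lowess curve (span 0.3) of the deviation in log2 CPM on log2 length, used as an offset. The scripts were tested on simulated data. No 2 libraries were copies: the chi-square per degree of freedom between replicates was 9.5 or more. Library totals of 38327508 counts and more leave counting error small beside the spread between libraries for all but the scarcest members.

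Promoters came from RefSeq (GRCh38.p14), as did gene spans; 78 of 78 members were matched. Of these, 30 overlap another gene's span and 17 a coding gene's. The genes named in full were the label checks, up to 6 called members with the smallest adjusted p per comparison and direction, every called member with an absolute log2 fold change of at least 1, the member with the highest mean FPKM in each family, and up to 3 called genes per outside list and knockout. Other members were named, after their values were seen, where a group's account needed them. The members and lists were chosen with earlier results of these data known. Alternatives were DESeq2 1.42.0, other scalings and filters, the compared groups alone, a replicate block, the length correction, and leaving out each library.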

Additional observations from a re-analysis of the deposited data

How the results depend on the processing

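Each comparison was repeated under 18 alternatives. Against the 13, 17 and 19 members called in OGT_KO, TR11B_KO and the direct comparison, 1, 5 and 6 kept their calls under all of them: HNRNPUL1; HNRNPUL1, PRPF8, SF3B2, SNRNP200 and SRSF4; and HNRNPA0, PRPF31, PRPF8, SF3B6, SNRNP200 and SNRNP35. The alternatives for all tested members gave 3615 values with the same direction and side of the threshold, 229 that lost a call, 140 that gained one, and 2 that changed sign with a call in the main analysis: SNRPF in TR11B_KO, at -0.006 with the length offset and -0.013 with the replicate block and length offset. The cause was not tested.

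The counts depended on the setting as follows. In OGT_KO (2 higher, 11 lower, 28 outside genes called), RLE size factors gave 1 higher, and the length offset 1 higher; library totals alone gave 4 higher and 3 lower; a fit of only the 2 groups compared gave 7 higher, 25 lower and 60 outside genes, with 41.8% of all genes called. In TR11B_KO (8 higher, 9 lower, 55 outside), library totals alone gave 2 higher and only the 2 groups 2 higher and 31 outside. In the direct comparison (6 higher, 13 lower, 49 outside), library totals alone gave 15 higher and 6 lower and the length offset 3 higher. With library totals alone the median over all genes shifted on the log2 scale to 0.15, -0.15 and 0.31 and that of the members to 0.05, -0.28 and 0.26.

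Leaving out 1 library gave 0 to 5 higher, 1 to 20 lower and 9 to 54 outside genes in OGT_KO, 2 to 18, 7 to 19 and 30 to 64 in TR11B_KO, and 2 to 11, 7 to 26 and 30 to 62 in the direct comparison. The share of all tested genes called ran over the same settings from 8.34% to 35.4%, from 14.1% to 34.8% and from 18.7% to 41.4%. Where this left a group with 2 libraries, the shared spread stood for it.

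Replicate numbers are shared between groups, and no label says what they mark. The deviations of libraries from their group means had correlations of -0.199 to 0.069 for same-numbered libraries and -0.100 to 0.216 for different numbers. With 3 libraries per group, these values cannot tell whether same-numbered libraries shared a culture or a day. With the number as a replicate block, OGT_KO had 1 higher, 7 lower and 15 outside genes and TR11B_KO 4 higher. With the replicate block and length offset together, OGT_KO had 0 higher and 15 outside genes, TR11B_KO 2 higher and 27 outside, and the direct comparison 3 higher, 6 lower and 29 outside.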
